A study of Mus musculus with 8 samples.

Results

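The 10 genes described here are *Vegfa*, *Adm*, *Slc2a1*, *Pdk1*, *Ndrg1*, *Egln3*, *Bnip3*, *Ankrd37*, *Hif3a* and *Ldha*, known targets of the hypoxia-inducible factors (HIFs), taken by name from the 25965 genes of a lung RNA-seq table. All 10 were expressed above the minimum used for testing, with 78 to 18727 reads per gene and library. Lungs came from mice with 2 intact *Wfdc2* alleles (*Wfdc2* +/+) or with a GFP knock-in on both alleles (*Wfdc2* GFP/GFP), taken before birth at embryonic stage E18.5 or after birth at postnatal stage P1.5, with 2 libraries from duplicate animals in each of the 4 groups. The homozygotes die after birth with respiratory failure, and the question put to these genes was whether mRNAs known to respond to low oxygen differed between the genotypes at either stage, and between the stages. The knock-in allele was made in TT2 embryonic stem cells, lacks part of exon 1 and all of exon 2, and lost its drug marker by a cross to *CAG-Cre* mice, which express Cre broadly. The lungs were not sorted, so fewer cells of a type and less RNA per cell cannot be told apart in any value given here. Which sequencer (HiSeq2500 or GAIIx) read which library was not given in the sources used here.

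HIFs are pairs of an oxygen-regulated alpha subunit (HIF1A, EPAS1 or HIF3A) and the constant partner ARNT. When oxygen is plentiful, prolyl hydroxylases of the EGLN family mark the alpha subunit, VHL recognises the mark and the subunit is degraded, so target genes are driven mainly when oxygen is short. Targets serve vessel growth and tone, glucose uptake and glycolysis, removal of mitochondria, and feedback on the pathway itself, and lung development before birth takes place at low oxygen.

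HIFs bind the core letters ACGTG or GCGTG. Promoter windows of 250 bases before a transcript start (RefSeq, GRCm38.p6, the build also called mm10) were found for 9 of the 10 genes, the exception being *Ndrg1*. A core, on either strand, stood in the first window of 8 of these 9 genes and in 38.6% of all 32851 windows of that length. The first window of *Vegfa* held 0 matches, and those of *Bnip3* and *Ldha* 5 each. *Vegfa*, *Pdk1* and *Ldha* had a second window each, with 2, 0 and 1 matches. Every first window began within 35 bases of a transcript start of the gene in GENCODE M21, the farthest being that of *Ldha*, whose start (46845804) lies inside the span of the gene and 35 bases before the nearest GENCODE start. The second windows of *Vegfa* and *Pdk1* were 282 and 175 bases from the nearest. The first 3 sequences below belong to the genes that had the largest decreases between the stages in *Wfdc2* GFP/GFP lungs, and the last belongs to *Ldha*, whose values went another way. Capitals mark the core, read 5′ to 3′ on the strand of the gene. Matches on both strands are counted, so that each CACGTG palindrome counts as 2.
*Hif3a*, minus strand, chr7:17062428-17062677: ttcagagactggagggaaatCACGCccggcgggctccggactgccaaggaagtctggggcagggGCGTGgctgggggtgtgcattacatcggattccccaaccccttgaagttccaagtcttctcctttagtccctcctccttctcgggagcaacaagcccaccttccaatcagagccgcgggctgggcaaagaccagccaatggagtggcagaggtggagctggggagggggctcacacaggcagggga
*Egln3*, minus strand, chr12:54203875-54204124: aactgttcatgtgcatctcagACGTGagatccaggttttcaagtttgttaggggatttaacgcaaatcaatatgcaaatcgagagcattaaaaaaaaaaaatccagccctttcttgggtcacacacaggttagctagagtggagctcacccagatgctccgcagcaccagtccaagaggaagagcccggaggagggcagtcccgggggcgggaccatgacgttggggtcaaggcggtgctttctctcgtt
*Pdk1*, plus strand, chr2:71872974-71873223: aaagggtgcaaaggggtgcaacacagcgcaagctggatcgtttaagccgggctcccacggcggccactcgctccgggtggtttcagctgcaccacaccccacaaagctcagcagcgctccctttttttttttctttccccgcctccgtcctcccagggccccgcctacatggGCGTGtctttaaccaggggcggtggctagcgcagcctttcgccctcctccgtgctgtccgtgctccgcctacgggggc
*Ldha*, plus strand, chr7:46845554-46845803: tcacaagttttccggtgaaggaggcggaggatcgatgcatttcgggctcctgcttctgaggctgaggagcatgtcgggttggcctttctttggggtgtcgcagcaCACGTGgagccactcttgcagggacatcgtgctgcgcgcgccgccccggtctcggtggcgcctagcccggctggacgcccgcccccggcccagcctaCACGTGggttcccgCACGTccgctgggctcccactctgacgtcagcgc
*Egln3* and *Pdk1* had 1 match each, 229 and 78 bases before the start. *Hif3a* had 2, both of the GCGTG form. *Ldha* had 5 of the ACGTG form, between 145 and 34 bases before the RefSeq start. No binding was measured, so these matches are a description of letters.

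The libraries held 19457647 to 37209333 reads. The targeted gene matched the labels, with 8038 to 32845 reads in *Wfdc2* +/+ and 0 to 12 reads in *Wfdc2* GFP/GFP. Both E18.5 *Wfdc2* +/+ libraries were alike, with a median gap of 0.08 on the log2 scale over the 10 genes, whereas the gap was 0.47 in E18.5 *Wfdc2* GFP/GFP, 1.31 in P1.5 *Wfdc2* +/+ and 0.80 in P1.5 *Wfdc2* GFP/GFP. Over all genes tested the same gaps were 0.14, 0.56, 0.80 and 0.38. E18.5 *Wfdc2* GFP/GFP replicate 1 stood apart in its markers, with a summed level of 5 proliferation genes of 1375 RPM (reads scaled to the library total) against 404 to 624 in the other E18.5 libraries, and 8847 against 17644 to 22434 RPM for 5 alveolar type II genes. The P1.5 *Wfdc2* +/+ replicates also differed, with 55794 and 27919 RPM for the alveolar type II genes, 571 and 1531 for 5 endothelial genes, 1638 and 452 for 6 neutrophil genes and 78 and 377 for the proliferation genes, replicate 1 first. Of the marker lists used here none had a gene at 0 in all libraries.

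Levels are log2 RPKM (reads scaled to the whole gene span in kilobases and to the library total). Differences between groups were tested with limma over the 15627 genes whose mean reached 0.05 RPKM, and adjusted p-values cover all of them. Differences are also on the log2 scale, given with their standard error (SE). With 2 libraries in a group the smallest p an exact permutation test allows is 0.3333, and that test was left out.

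The clearest difference was between the stages in *Wfdc2* GFP/GFP lungs. There, 4 of the 10 genes fell from E18.5 to P1.5 at a limma adjusted p under 0.05, namely *Hif3a*, *Egln3*, *Pdk1* and *Ndrg1*, against 2.94% of all genes tested. Both P1.5 libraries lay below both E18.5 libraries for 8 of the 10, and for 48.5% of all genes. The median difference of the 10 genes was −1.98, beside −0.46 over all genes tested. The downward shift of all genes depended on the scaling, since after centring each library on its median it became 0.21. With that centring *Ndrg1* no longer passed (adjusted p = 0.0722), and the other 3 did. The calls also depended on which libraries were in the fit. The calls named above were lost without E18.5 *Wfdc2* GFP/GFP replicate 1, the library that stood apart, and without either P1.5 *Wfdc2* GFP/GFP library. In those fits nearly all calls among all genes tested were lost too, so the loss was not particular to the 10. Without E18.5 *Wfdc2* GFP/GFP replicate 2 the calls named above were kept, and more of all genes tested passed. That group then rested on the library that stood apart. Without E18.5 *Wfdc2* GFP/GFP replicate 1 *Hif3a* differed by −5.27, *Egln3* by −3.78, *Ndrg1* by −2.42 and *Pdk1* by −2.10. Without replicate 2 of that group these were −5.8, −3.2, −2.2 and −3.1. Without either E18.5 *Wfdc2* +/+ library *Pdk1* and *Ndrg1* were lost. Without either P1.5 *Wfdc2* +/+ library more genes passed, both of the 10 and of all genes tested. Leaving out a *Wfdc2* +/+ library moved the calls and not the differences, since all 4 groups share 1 estimate of the spread.

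In *Wfdc2* +/+ lungs 0 of the 10 genes passed between the stages, against 0.0576% of all genes. An unadjusted limma p under 0.05 was found for 5 of the 10 and for 1850 of the 15627 genes tested. All 10 means were lower at P1.5, by a median of −0.94 beside −0.15 over all genes, but for *Vegfa*, *Adm* and *Bnip3* the sign turned after median centring. For 6 of the 10 genes both P1.5 libraries lay below both E18.5 libraries, as they did for 28.2% of all genes. When P1.5 *Wfdc2* +/+ replicate 2 was left out, *Pdk1* differed by −2.49 and *Ldha* by −1.83. When replicate 1 was left out, these were −1.77 and −0.73.

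Before birth, 0 of the 10 genes passed between the genotypes (0.0192% of all genes). An unadjusted limma p under 0.05 was found for 1 of the 10 and for 683 of the 15627 genes tested. Yet 9 of the 10 means were higher in *Wfdc2* GFP/GFP, by a median of 0.72 over the 10 beside 0.09 over all genes tested. For 8 of the 10 both *Wfdc2* GFP/GFP libraries lay above both *Wfdc2* +/+ libraries, against 26.5% of all genes, and for 0 of the 10 below, against 9.46%. *Adm* was the gene whose mean was lower. These 10 directions held in every alternative tried and with each library left out, and dropping 1 E18.5 library at a time gave medians of 0.58 to 0.78, with 0.72 without *Wfdc2* GFP/GFP replicate 1. The means of some marker lists also differed between the genotypes at this stage, with 0 genes passing. Of all genes tested, 59.2% were higher and 40.8% lower in *Wfdc2* GFP/GFP. All 5 proliferation genes (median 0.54, sums of 443 and 1375 RPM against 404 and 624) and all 4 cardiac muscle genes (median 1.05, sums of 156 and 420 RPM against 92.2 and 178) were higher in *Wfdc2* GFP/GFP, and all 5 erythroid genes (median −1.17, 386 and 1068 against 1353 and 1371 RPM) and all 5 alveolar type I genes (median −0.58, 2096 and 4084 against 3971 and 4438 RPM) were lower. Both *Wfdc2* GFP/GFP libraries lay above both *Wfdc2* +/+ libraries for 0 of the 5 proliferation genes and 2 of the 4 cardiac muscle genes. They lay below for 1 of the 5 erythroid genes and 1 of the 5 alveolar type I genes. For the proliferation and alveolar type I sums, *Wfdc2* GFP/GFP replicate 2 was within the *Wfdc2* +/+ range. The part of these lists in the values of the 10 genes was not tested.

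After birth, 0 of the 10 passed again (0.0128% of all genes). Of the 10, 2 (*Hif3a* and *Ldha*) had an unadjusted limma p under 0.05, as did 1710 of the 15627 genes tested. Only *Ldha* lay above in both *Wfdc2* GFP/GFP libraries (12.6% of all genes), while *Hif3a*, *Egln3* and *Ndrg1* lay below (26.9% of all genes), and the libraries of the other 6 overlapped. The median difference at P1.5 was −0.49 beside −0.20 over all genes, and it moved with the libraries: it was 0.01 without *Wfdc2* +/+ replicate 1, −0.64 without *Wfdc2* +/+ replicate 2, −0.18 without *Wfdc2* GFP/GFP replicate 1 and −0.64 without *Wfdc2* GFP/GFP replicate 2. The change of the genotype difference between the stages passed for 0 of the 10 genes and for 0.0% of all genes. It is also the stage difference in *Wfdc2* GFP/GFP minus that in *Wfdc2* +/+. For this change 3 of the 10 (*Hif3a*, *Egln3* and *Ndrg1*) had an unadjusted limma p under 0.05, as did 1599 of the 15627 genes tested.

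**Figure D1:**
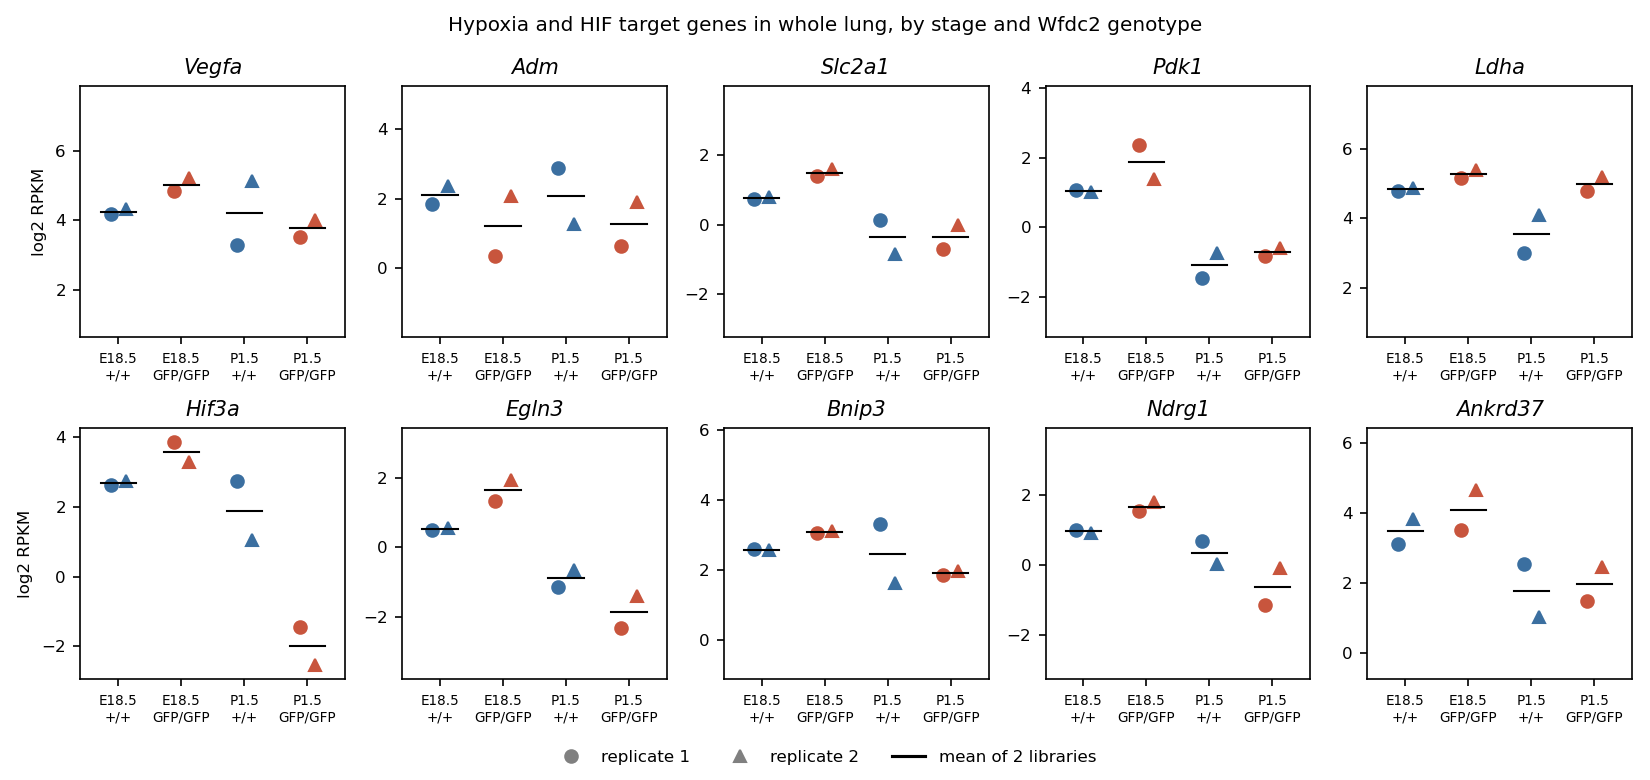
Log2 RPKM of the 10 genes in each library, by stage and genotype (circles, replicate 1; triangles, replicate 2; lines, mean of 2 libraries; every panel spans the same number of log2 units). *Hif3a* in P1.5 *Wfdc2* GFP/GFP sits far below its other groups, and the P1.5 *Wfdc2* +/+ replicates lie far apart for *Vegfa*, *Adm*, *Bnip3*, *Ankrd37*, *Hif3a* and *Ldha*.

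The 2 largest stage differences in *Wfdc2* GFP/GFP lungs belonged to genes that feed back on the pathway. All 10 genes are protein-coding, and their positions are those of mm10 as deposited. *Hif3a* (chromosome 7, 17031507 to 17062427, minus strand) encodes an alpha subunit that is itself a HIF target and can act as a brake on the pathway. Its log2 RPKM was 2.63 and 2.73 in E18.5 *Wfdc2* +/+, 3.84 and 3.29 in E18.5 *Wfdc2* GFP/GFP, 2.75 and 1.04 in P1.5 *Wfdc2* +/+, and −1.43 and −2.53 in P1.5 *Wfdc2* GFP/GFP. In reads this was 4512 and 1238 in the P1.5 *Wfdc2* +/+ libraries against 265 and 157 in the P1.5 *Wfdc2* GFP/GFP libraries. The P1.5 *Wfdc2* GFP/GFP libraries were thus below all 6 others, and the E18.5 *Wfdc2* GFP/GFP libraries above all 6 others. In *Wfdc2* GFP/GFP, *Hif3a* fell by 5.55 between the stages (SE 0.59, limma adjusted p = 0.0189), 46.7-fold. In *Wfdc2* +/+ the difference was −0.78 (SE 0.59, adjusted p = 0.489), with overlapping libraries. The genotype difference at P1.5 was −3.88 (95% interval −5.25 to −2.50, adjusted p = 0.152), 14.7-fold lower in *Wfdc2* GFP/GFP, and at E18.5 it was 0.89 (SE 0.59, adjusted p = 1.0). Because the P1.5 *Wfdc2* +/+ replicates differed by 1.71, the P1.5 value was −4.73 without replicate 2 of that group (adjusted p = 0.0393) and −3.02 without replicate 1 (adjusted p = 0.0728). Over all alternatives and libraries left out the adjusted p ran from 0.0109 to 0.481. The 2 genotype differences were opposite in sign and differed by −4.76 (SE 0.84, adjusted p = 0.153).

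*Egln3* (chromosome 12, 54178981 to 54203860, minus strand) encodes a prolyl hydroxylase that marks HIF alpha subunits for degradation and is itself induced by HIF. It measured 0.51 and 0.56 in E18.5 *Wfdc2* +/+, 1.34 and 1.94 in E18.5 *Wfdc2* GFP/GFP, −1.12 and −0.65 in P1.5 *Wfdc2* +/+, and −2.30 and −1.38 in P1.5 *Wfdc2* GFP/GFP (log2 RPKM). None of the 4 groups overlapped. In *Wfdc2* GFP/GFP it fell by 3.48 (SE 0.43, adjusted p = 0.0210), or 11.2-fold, and in *Wfdc2* +/+ the difference was −1.42 (SE 0.43, adjusted p = 0.301). Between the genotypes it differed by 1.11 at E18.5 (SE 0.43, unadjusted p = 0.0326, adjusted p = 1.0) and by −0.95 at P1.5 (SE 0.43, adjusted p = 0.471). Among the 10 genes the unadjusted limma p of 0.0326 was the only one under 0.05 at E18.5. The change between the stages was −2.06 (SE 0.60, adjusted p = 0.310).

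Among the genes of glucose uptake and pyruvate use, *Slc2a1* and *Pdk1* were lower in all P1.5 than in all E18.5 libraries, and *Ldha* was not. *Slc2a1* (chromosome 4, 119108711 to 119137330, plus strand) encodes the glucose transporter GLUT1. Its log2 RPKM was 0.72 and 0.78 in E18.5 *Wfdc2* +/+, 1.40 and 1.58 in E18.5 *Wfdc2* GFP/GFP, 0.15 and −0.84 in P1.5 *Wfdc2* +/+, and −0.68 and −0.01 in P1.5 *Wfdc2* GFP/GFP. At E18.5 the *Wfdc2* GFP/GFP libraries were the higher ones, and at P1.5 the genotypes overlapped. The stage difference was −1.10 in *Wfdc2* +/+ (SE 0.42, adjusted p = 0.394) and −1.84 in *Wfdc2* GFP/GFP (SE 0.42, adjusted p = 0.0506), the latter just short of the threshold. The genotype difference was 0.74 at E18.5 (SE 0.42, 95% interval −0.23 to 1.71) and 0.0003 at P1.5 (95% interval −0.97 to 0.97).

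*Pdk1* (chromosome 2, 71873224 to 71903858, plus strand) encodes a kinase that shuts pyruvate out of the mitochondrial citric acid cycle. Its values were 1.08 and 1.0 in E18.5 *Wfdc2* +/+, 2.35 and 1.39 in E18.5 *Wfdc2* GFP/GFP, −1.45 and −0.73 in P1.5 *Wfdc2* +/+, and −0.82 and −0.58 in P1.5 *Wfdc2* GFP/GFP (log2 RPKM). The genotypes overlapped at P1.5 and not at E18.5. It fell by 2.57 in *Wfdc2* GFP/GFP (SE 0.42, adjusted p = 0.0351) and differed by −2.13 in *Wfdc2* +/+ (SE 0.42, adjusted p = 0.126), and these did not differ beyond their error (−0.44, SE 0.60, adjusted p = 0.861). The call was lost with a replicate block (adjusted p = 0.0575) and with no filter on low values (0.0504). E18.5 *Wfdc2* GFP/GFP replicate 1, the library with the high proliferation sum, held the highest *Pdk1* value. The part of that sum in the value was not tested.

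*Ldha* (chromosome 7, 46841475 to 46855627, plus strand) encodes the lactate dehydrogenase subunit that turns pyruvate to lactate. It stood at 4.79 and 4.87 in E18.5 *Wfdc2* +/+, 5.15 and 5.38 in E18.5 *Wfdc2* GFP/GFP, 3.0 and 4.11 in P1.5 *Wfdc2* +/+, and 4.79 and 5.19 in P1.5 *Wfdc2* GFP/GFP (log2 RPKM). Its pattern differed from that of the genes above in that the P1.5 *Wfdc2* +/+ libraries were the lowest and those of P1.5 *Wfdc2* GFP/GFP overlapped those of E18.5. The genotype difference at P1.5 was 1.44 (SE 0.40, 95% interval 0.51 to 2.36, unadjusted p = 0.00726, adjusted p = 0.311), 2.71-fold, and it ran from 0.89 to 1.99 with each library left out. At E18.5 it was 0.43 (SE 0.40). The stage difference was −1.28 in *Wfdc2* +/+ (SE 0.40, adjusted p = 0.312) and −0.27 in *Wfdc2* GFP/GFP (SE 0.40, adjusted p = 0.620), where it turned to 0.40 after median centring.

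**Figure D2:**
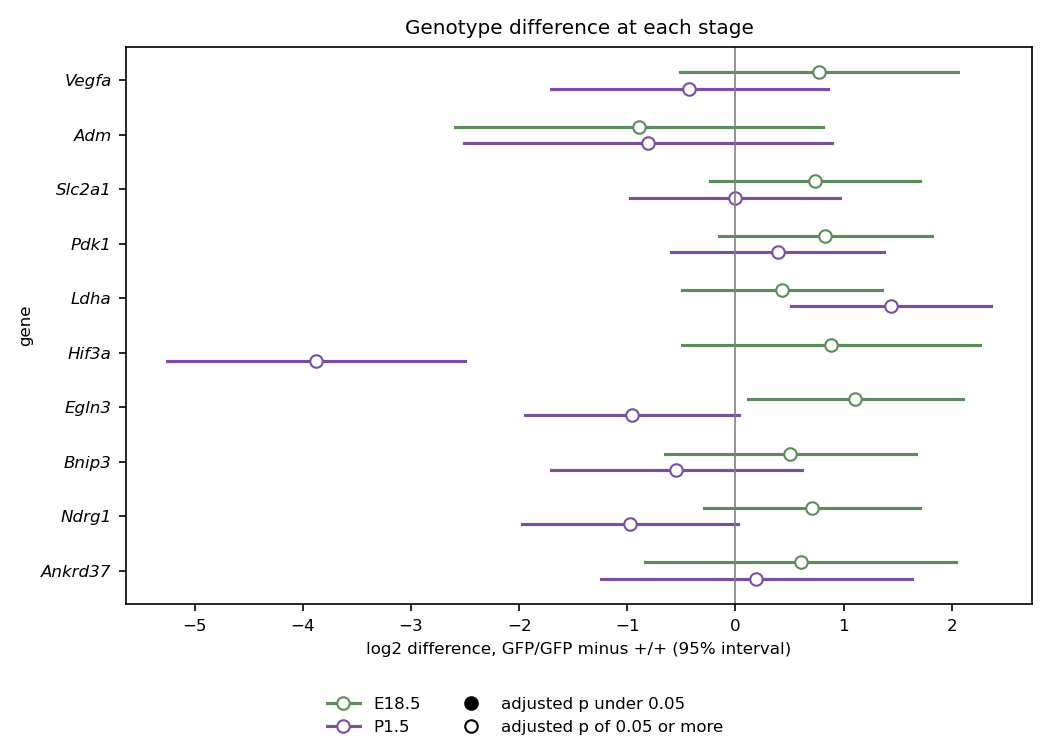
Log2 difference between *Wfdc2* GFP/GFP and *Wfdc2* +/+ lungs for the 10 genes at E18.5 (green) and P1.5 (purple), with 95% intervals from limma; open points have an adjusted p of 0.05 or more. At E18.5 all genes but *Adm* lie right of 0, and at P1.5 *Hif3a* lies at −3.88 and *Ldha* at 1.44.

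Neither gene of a secreted factor passed in any comparison. *Vegfa* (chromosome 17, 46016993 to 46032377, minus strand), the endothelial growth factor that alveolar epithelium supplies to its capillaries, was at 4.18 and 4.32 in E18.5 *Wfdc2* +/+, 4.83 and 5.21 in E18.5 *Wfdc2* GFP/GFP, 3.29 and 5.12 in P1.5 *Wfdc2* +/+, and 3.53 and 4.02 in P1.5 *Wfdc2* GFP/GFP (log2 RPKM). The P1.5 *Wfdc2* +/+ replicates spanned nearly the whole range of the gene, a gap of 1.83, so the P1.5 genotype difference of −0.43 (SE 0.55, adjusted p = 0.788) was −1.34 or 0.49 depending on which of them was left out. In *Wfdc2* GFP/GFP the stage difference was −1.25 (SE 0.55, adjusted p = 0.149) without overlap. *Adm* (chromosome 7, 110627669 to 110629819, plus strand) encodes adrenomedullin, a peptide that widens vessels. It had 78 to 346 reads and measured 1.86 and 2.36 in E18.5 *Wfdc2* +/+, 0.36 and 2.07 in E18.5 *Wfdc2* GFP/GFP, 2.89 and 1.29 in P1.5 *Wfdc2* +/+, and 0.65 and 1.91 in P1.5 *Wfdc2* GFP/GFP. Every pair of its groups overlapped. Its differences in the 5 comparisons lay between −0.89 and 0.08, with a 95% interval of −2.59 to 0.81 for the genotype difference at E18.5.

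*Bnip3* (chromosome 7, 138890836 to 138909519, minus strand) encodes a protein of the outer mitochondrial membrane that promotes removal of mitochondria. Its log2 RPKM was 2.58 and 2.57 in E18.5 *Wfdc2* +/+, 3.05 and 3.12 in E18.5 *Wfdc2* GFP/GFP, 3.31 and 1.61 in P1.5 *Wfdc2* +/+, and 1.86 and 1.97 in P1.5 *Wfdc2* GFP/GFP. Replicates lay within 0.11 of each other in every group but P1.5 *Wfdc2* +/+, where the gap was 1.70. Its stage difference in *Wfdc2* GFP/GFP was −1.17 (SE 0.50, adjusted p = 0.139), and its genotype difference was 0.51 at E18.5 and −0.55 at P1.5 (SE 0.50 for both).

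*Ndrg1* (chromosome 15, 66929321 to 66969640, minus strand) encodes a stress-responsive cytoplasmic protein linked to differentiation. It measured 1.01 and 0.93 in E18.5 *Wfdc2* +/+, 1.55 and 1.81 in E18.5 *Wfdc2* GFP/GFP, 0.70 and 0.03 in P1.5 *Wfdc2* +/+, and −1.14 and −0.08 in P1.5 *Wfdc2* GFP/GFP (log2 RPKM). As for *Egln3*, the groups did not overlap, with E18.5 *Wfdc2* GFP/GFP the highest and P1.5 *Wfdc2* GFP/GFP the lowest. It fell by 2.29 in *Wfdc2* GFP/GFP (SE 0.43, adjusted p = 0.0427), or 4.88-fold, and differed by −0.61 in *Wfdc2* +/+ (SE 0.43, adjusted p = 0.471). The genotype difference was 0.71 at E18.5 and −0.98 at P1.5 (SE 0.43 for both, adjusted p = 1.0 and 0.468). The call between the stages was lost with no filter on low values (0.0611), quantile normalization (0.0579), voom on recovered reads (0.0518) and a replicate block (0.0629).

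*Ankrd37* (chromosome 8, 45996902 to 45999867, minus strand) encodes a small ankyrin-repeat protein and is a strong HIF target in cultured cells. It stood at 3.12 and 3.84 in E18.5 *Wfdc2* +/+, 3.52 and 4.65 in E18.5 *Wfdc2* GFP/GFP, 2.53 and 1.02 in P1.5 *Wfdc2* +/+, and 1.48 and 2.46 in P1.5 *Wfdc2* GFP/GFP (log2 RPKM). All P1.5 libraries were below all E18.5 libraries, and the genotypes overlapped at both stages. The stage difference was −1.71 in *Wfdc2* +/+ (SE 0.62, adjusted p = 0.379) and −2.12 in *Wfdc2* GFP/GFP (SE 0.62, adjusted p = 0.0701). Its span overlaps *Lrp2bp* on the other strand over 19.0% of its bases, a gene with 8 to 147 reads, and *Ufsp2* over 57 bases, a gene with 548 to 1757 reads. Whether the counting used strand was not given in the sources used here. *Slc2a1* and *Ndrg1* overlap antisense genes with at most 16 reads.

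**Figure D3:**
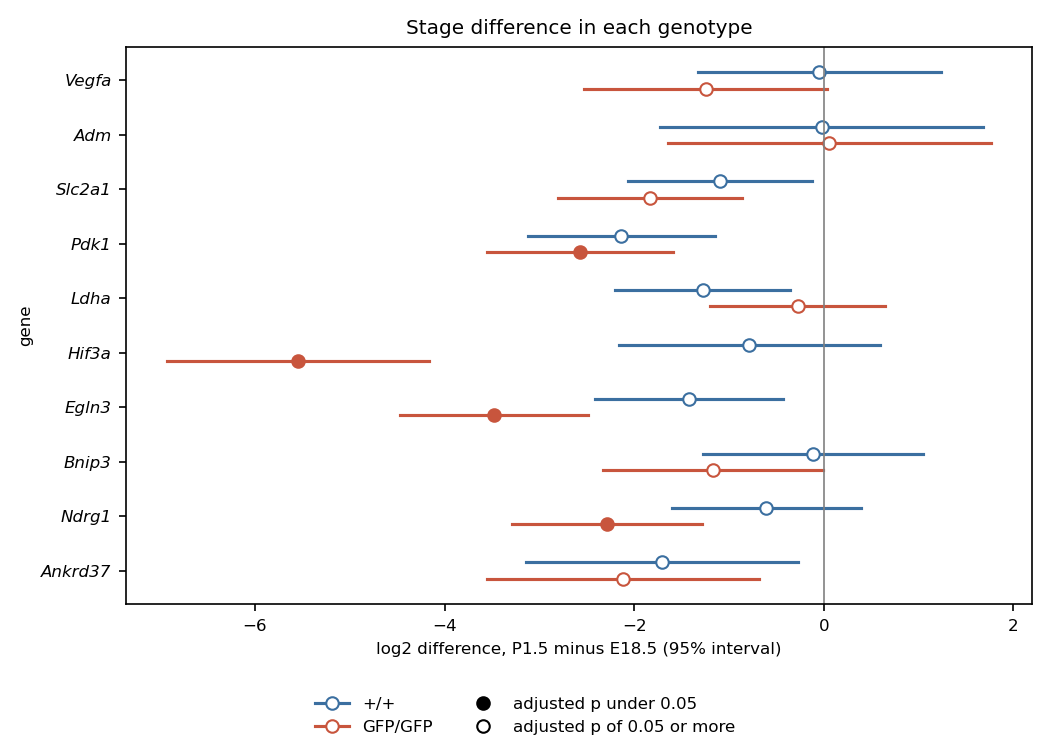
Log2 difference between P1.5 and E18.5 for the 10 genes in *Wfdc2* +/+ (blue) and *Wfdc2* GFP/GFP (red) lungs, with 95% intervals from limma; filled points have an adjusted p under 0.05. The filled points are *Hif3a* at −5.55, *Egln3* at −3.48, *Pdk1* at −2.57 and *Ndrg1* at −2.29, all in *Wfdc2* GFP/GFP.

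Per kilobase of exon, *Ldha* and *Vegfa* had the highest levels of the 10 in every group. In E18.5 *Wfdc2* +/+ they stood at 122 ± 4.95 and 68.3 ± 4.69 RPM per kb of exon (SD, n = 2), followed by *Bnip3* at 49.2 ± 0.417 and *Hif3a* at 29.5 ± 1.36, with *Adm* last at 5.84 ± 1.43. *Hif3a* was 4th of the 10 in the other E18.5 group too and in P1.5 *Wfdc2* +/+, where its level was 20.2 ± 15.2, and was last in P1.5 *Wfdc2* GFP/GFP at 1.25 ± 0.640. In P1.5 *Wfdc2* +/+ the first 3, *Vegfa* (79.9 ± 63.4), *Ldha* (54.0 ± 27.9) and *Bnip3* (53.6 ± 40.1), did not differ beyond their spread.

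Over the 8 libraries 39 of the 45 pairs among the 10 genes correlated positively in log2 RPKM and 10 pairs had r above 0.8; after median centring the numbers were 35 and 6. The closest pair was *Slc2a1* with *Ankrd37* (r = 0.961, 0.960 after centring), followed by *Ndrg1* with *Egln3* (r = 0.939). *Adm* with *Ldha* had the lowest r, −0.43. Among all genes tested the one most like *Hif3a* was *Rnase1* (r = 0.987), that most like *Egln3* was *Zcchc5* (0.979), that most like *Pdk1* was *Vwa2* (0.990) and that most like *Slc2a1* was *Mslnl* (0.997). For the others it was *Csf2ra* for *Vegfa* (0.992), *Th1l* for *Ldha* (0.980), *Clca1* for *Ndrg1* (0.969), *Tbata* for *Bnip3* (0.966), *Atp1b1* for *Ankrd37* (0.964) and *Fst* for *Adm* (0.959). These r values share 4 group means and the depth of the libraries and are given as a description. The share of positive pairs, or of pairs with r above 0.8, among all genes tested was not computed.

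The HIF pathway's own genes did not pass in any of the 5 comparisons (0 of 8 tested). *Hif1a*, the broadly expressed alpha subunit, was at 1.12 and 1.10 in E18.5 *Wfdc2* +/+, 1.42 and 0.47 in E18.5 *Wfdc2* GFP/GFP, −0.82 and 0.10 in P1.5 *Wfdc2* +/+, and −0.59 and −0.10 in P1.5 *Wfdc2* GFP/GFP (log2 RPKM). Its stage difference was −1.47 in *Wfdc2* +/+ (SE 0.46, adjusted p = 0.312) and −1.29 in *Wfdc2* GFP/GFP (SE 0.46, adjusted p = 0.0961). In both genotypes the stages did not overlap. *Epas1*, the alpha subunit abundant in endothelium and alveolar type II cells, went the other way, with differences of 0.96 (adjusted p = 0.395) and 1.45 (adjusted p = 0.0572). The common partner *Arnt* differed by −0.96 and −1.59. *Vhl*, which targets the hydroxylated subunits for degradation, had its largest difference between the genotypes at P1.5, 1.99 and 1.99 against 2.79 and 2.92 (difference 0.87, SE 0.27, adjusted p = 0.340). The hydroxylases *Egln1* and *Egln2*, paralogs of *Egln3*, differed between the genotypes by at most 0.32 at either stage. The asparagine hydroxylase *Hif1an* differed by −0.18 at P1.5 and 0.07 at E18.5.

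Of 14 genes of glycolysis and lactate export 0 passed in any comparison. All 14 means were lower at P1.5 than at E18.5 in *Wfdc2* GFP/GFP (median −0.91) and 13 of 14 in *Wfdc2* +/+ (median −0.79), against 63.9% and 57.1% of all genes. In *Wfdc2* GFP/GFP 12 of 14 were higher at E18.5 (median 0.42; 59.2% of all genes) and 11 of 14 at P1.5 (median 0.20 beside −0.20 over all genes, of which 38.8% were higher). At P1.5 both *Wfdc2* GFP/GFP libraries lay above both *Wfdc2* +/+ libraries for 4 of the 14, against 12.6% of all genes, among them *Pgk1* (0.92, SE 0.34, unadjusted p = 0.0273, adjusted p = 0.396) and *Pkm* (0.70, SE 0.27, unadjusted p = 0.0323, adjusted p = 0.413), which make ATP in glycolysis. These 2 were chosen after their values were seen, and their sign is that of *Ldha*. Of 20 other hypoxia-induced genes, 2 fell between the stages in *Wfdc2* GFP/GFP, against 2.94% of all genes: *Ak4*, a mitochondrial adenylate kinase, by 2.57 (SE 0.47, adjusted p = 0.0407), and *Vldlr*, a lipoprotein receptor, by 1.76 (SE 0.35, adjusted p = 0.0447). In *Wfdc2* +/+ they differed by −1.50 (SE 0.47, adjusted p = 0.316) and −0.97 (SE 0.35, adjusted p = 0.377), both without overlap, and the difference between the genotypes in this change did not pass for either (adjusted p = 0.649 and 0.652). In that list 19 of 20 means were higher in *Wfdc2* GFP/GFP at E18.5 (median 0.40 beside 0.09 over all genes, of which 59.2% were higher), with 0 passing. At P1.5 15 of 20 were lower, with 0 passing, and the median of −0.18 was near that of all genes (−0.20, with 61.2% lower). *Bnip3l*, the paralog of *Bnip3*, differed by −0.23 at E18.5 and −0.46 at P1.5, and *Ldhb*, the paralog of *Ldha*, by 0.30 and 0.28. *Pdk4*, the kinase of fasting and fatty acid use, differed by 0.48 and −1.14 (SE 0.36, adjusted p = 0.344), non-overlapping at both stages.

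Of 6 receptor genes for VEGFA and adrenomedullin, *Ramp3*, a co-receptor of adrenomedullin, was higher at P1.5 in *Wfdc2* GFP/GFP by 5.19 (SE 0.83, adjusted p = 0.0333), from 11 to 19 reads at E18.5 to 308 to 560 reads at P1.5 (1.61% of all genes rose). In *Wfdc2* +/+ it differed by 2.81 (SE 0.83, unadjusted p = 0.00997, adjusted p = 0.294), also without overlap, and the difference between the genotypes in this change was 2.38 (SE 1.17, adjusted p = 0.546). *Kdr* and *Flt1*, the VEGFA receptors of endothelium, differed between the genotypes by 0.03 and −0.49 at P1.5. *Calcrl*, the adrenomedullin receptor, differed by −1.25 (SE 0.41, adjusted p = 0.347) without overlap, and its partner *Ramp2* by 0.19.

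**Figure D4:**
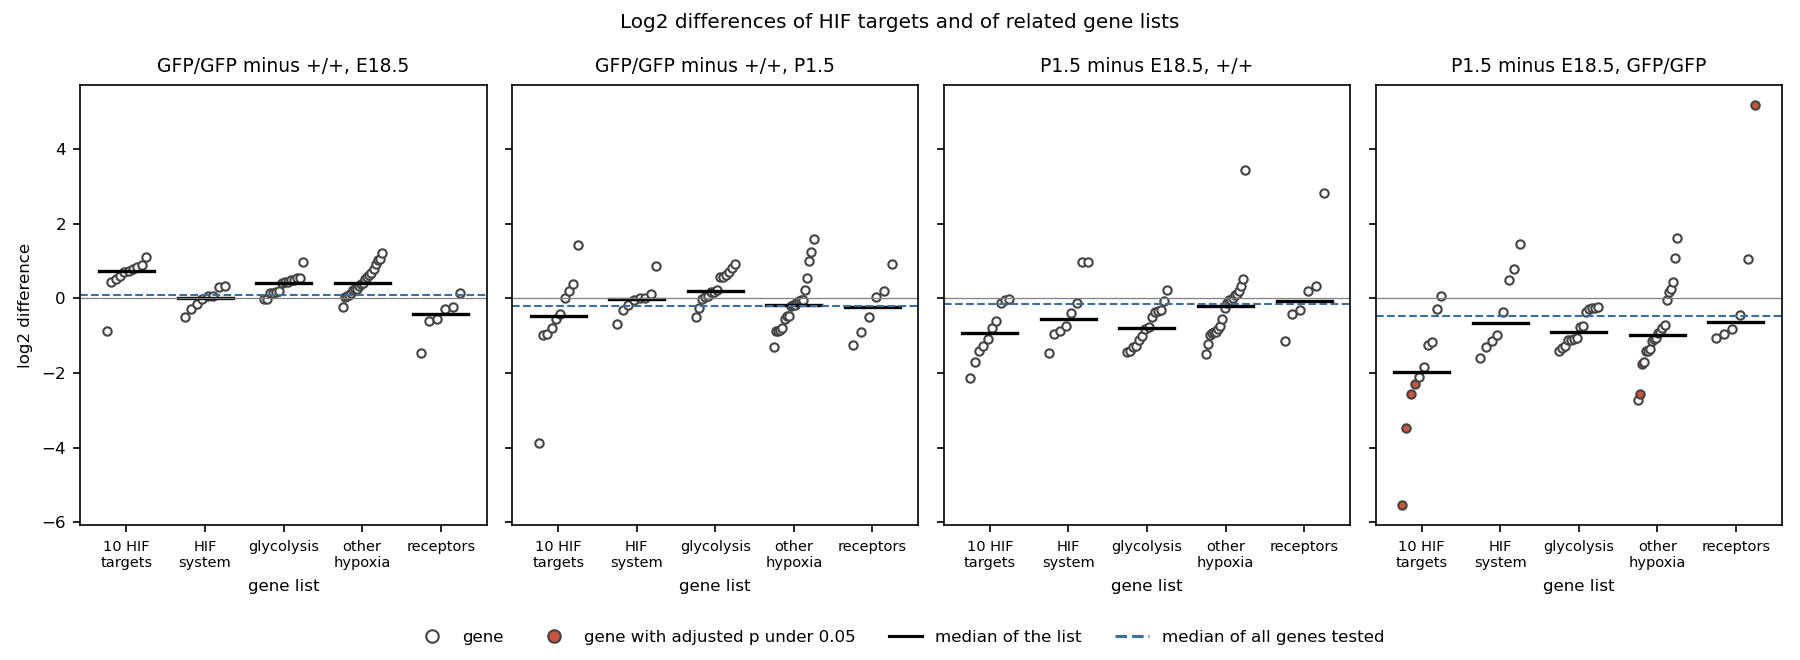
Log2 differences of the 10 HIF targets, 8 genes of the HIF system, 14 of glycolysis, 20 other hypoxia-induced genes and 6 receptors, in 4 comparisons (points, genes; black lines, medians of the lists; dashed lines, median of all genes tested). In *Wfdc2* GFP/GFP between the stages the median of the 10 is −1.98 and that of all genes −0.46.

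Marker genes moved with the stage. In *Wfdc2* GFP/GFP the summed proliferation genes were 443 to 1375 RPM at E18.5 and 104 to 189 RPM at P1.5, with 5 of 5 genes lower (median −2.33) and 0 passing. Of 6 neutrophil genes 3 rose, against 1.61% of all genes (median of the 6, 3.02), namely *Retnlg* by 5.46, *S100a9* by 4.85 and *S100a8* by 4.17 (adjusted p = 0.0242, 0.0189 and 0.0320), and their sum was 36.1 to 43.6 RPM at E18.5 and 774 to 1172 RPM at P1.5. The alveolar type II sum was 8847 to 22434 RPM at E18.5 and 47505 to 65478 RPM at P1.5, and the endothelial sum 1243 to 1570 and 986 to 1281 RPM. Erythroid genes were at 386 to 1068 and 2284 to 2803 RPM. The airway sum was 922 to 2547 RPM at E18.5 and 8528 to 9384 RPM at P1.5, with 1 of 5 genes passing, the club cell gene *Scgb1a1*, which rose by 5.27 (adjusted p = 0.0459). Of the other lists *Aqp5* of alveolar type I cells rose by 4.26 (adjusted p = 0.04997), *Marco* of macrophages by 3.67 (adjusted p = 0.0331) and *Tagln* of smooth muscle by 2.41 (adjusted p = 0.0425). The same 7 genes also had higher means at P1.5 in *Wfdc2* +/+, by 1.10 (*Tagln*) to 3.93 (*S100a8*, adjusted p = 0.0859), with 0 passing. Their lists did not rise as a whole. In *Wfdc2* GFP/GFP 3 of 5 airway, 3 of 5 alveolar type I, 4 of 5 macrophage and 3 of 4 smooth muscle genes had higher means at P1.5. The others of these lists had lower means. Of all genes tested 36.1% were higher. At P1.5 the *Wfdc2* +/+ sums were 8138 to 17006 RPM for airway, 452 to 1638 RPM for neutrophil, 27919 to 55794 RPM for alveolar type II and 1190 to 1496 RPM for erythroid genes. The 4 cardiac muscle genes had higher means in the homozygotes after birth as well (median 0.63, sums of 401.2 to 583 against 193 to 465 RPM). The part of these cell types in the values of the 10 genes was not tested.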

How the data were processed

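Total lung RNA was made into libraries with a directional kit (NEBNext Ultra Directional). The authors trimmed the reads (Trim Galore 0.4.0), mapped them to mm10 (TopHat2 2.1.1) and counted them in SeqMonk, and they deposited log2 RPKM, 1 column per library. CASAVA 1.8 is also named in the submitters' processing notes. Checked on the deposited log2 values, gene length is the full span with introns, a gene without reads is entered as 0.9 read, and 99.86% to 99.96% of values per library are within 0.02 of whole reads. The log2 values were fitted as deposited with limma 3.58.1 (R 4.3.3), with 1 mean per group, a trend in the prior and Benjamini-Hochberg adjustment over 15627 genes. Python 3.11.15, pandas 2.3.3 and matplotlib 3.10.9 made summaries and figures. The fits were also run on simulated data with planted differences. That run gave all libraries the same spread, unlike these groups, so it cannot show how well the fits perform here.

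The 10 genes and the other lists were chosen with earlier results of these data known. Outside the 10, genes of the lists are named if they passed a comparison (at most 5 per list and comparison), or because they are *Hif1a*, *Epas1*, *Arnt*, *Vhl*, *Egln1*, *Egln2*, *Hif1an*, *Kdr*, *Flt1*, *Calcrl*, *Ramp2*, *Bnip3l*, *Ldhb* or *Pdk4*. *Pgk1* and *Pkm* are exceptions to this rule, chosen after their values were seen. The gene closest to each of the 10, by Pearson's r of log2 RPKM over the 8 libraries, is named too. Exon lengths come from GENCODE M21. Groups and replicate numbers come from the sample titles. The authors call the *Wfdc2* +/+ samples littermate controls, but same-numbered libraries are not stated to share a litter.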

Additional observations from a re-analysis of the deposited data

Results flagged for a closer look

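In 3 genes the homozygous libraries exceeded both *Wfdc2* +/+ libraries at E18.5 and lay below them at P1.5, which is what drew attention to them. Of all genes tested, 26.5% lay above at E18.5 and 26.9% below at P1.5. The share of all genes with both was not computed. The genotype difference at P1.5 minus that at E18.5 was −4.76 for *Hif3a* (SE 0.841, limma adjusted p = 0.153), −2.06 for *Egln3* (SE 0.605, adjusted p = 0.310) and −1.68 for *Ndrg1* (SE 0.610, adjusted p = 0.401). The difference itself was therefore tested and missed the threshold for all 3. With each library left out in turn it ran from −5.62 to −3.91 for *Hif3a*, from −2.52 to −1.60 for *Egln3* and from −2.21 to −1.15 for *Ndrg1*.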

How the results depend on the processing

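Of 870 values of the 10 genes under alternatives, 800 kept their direction and side of the threshold, 23 lost a call, 17 gained one and 30 turned in sign. Unless stated otherwise the cause was not tested. The number of the 10 genes that fell between the stages in *Wfdc2* GFP/GFP, 4 as reported, was 2 with no filter (more genes tested), 7 with only the 4 libraries compared, 2 with a replicate block, and 0 to 8 with each library left out. *Hif3a* and *Egln3* passed in 14 of 17 alternatives, *Pdk1* in 10 and *Ndrg1* in 7. Over all genes, 252 were higher and 459 lower in that comparison, 849 and 430 after median centring, 377 and 329 after quantile normalization, 122 and 227 with no filter, 769 and 2267 with only the 4 libraries, 75 and 50 with the block, 62 and 67 with voom and 135 and 102 with a pseudocount of 1 RPKM. At P1.5 the number between the genotypes, 0 as reported, was 1 (*Hif3a*, adjusted p = 0.0109) with a replicate block within stage, an alternative added after seeing the data, and 0 to 1 with each library left out. Between the stages in *Wfdc2* +/+ the number was 0 in every alternative that left out no library. At E18.5 and for the change between the stages it was 0 throughout. Same-numbered libraries correlated in their deviations at r = 0.23 at E18.5 and 0.21 at P1.5. Correlations across the stages (lowest −0.29) say nothing of pairs within a stage. The numbers were not taken as pairs because no pairing is stated, and these values do not settle whether there was one. Apart from *Hif3a* at P1.5 and *Pdk1* and *Ndrg1* between the stages, the blocks ended or made no call. Signs turned for *Slc2a1* at P1.5 with pseudocounts of 0.1 (−0.0042) and 1 RPKM (−0.011), between the stages in *Wfdc2* +/+ after median centring for *Vegfa* (0.22), *Adm* (0.25) and *Bnip3* (0.15), there also for *Adm* with a pseudocount of 1 RPKM (0.015) and with voom (0.0019), and in *Wfdc2* GFP/GFP for *Ldha* after centring (0.40). With each library left out, the differences at P1.5 ran from −1.34 to 0.49 for *Vegfa*, −0.49 to 0.49 for *Slc2a1*, −1.40 to 0.30 for *Bnip3* and −0.56 to 0.95 for *Ankrd37*. Those between the stages in *Wfdc2* +/+ ran from −0.96 to 0.87 for *Vegfa*, −0.82 to 0.78 for *Adm*, −0.96 to 0.74 for *Bnip3* and −1.64 to 0.069 for *Hif3a*, and that of *Adm* in *Wfdc2* GFP/GFP from −0.79 to 0.92. The change between the stages ran from −0.77 to 0.94 for *Adm*, −0.92 to 0.039 for *Pdk1* and −1.17 to 0.34 for *Ankrd37*. With a library left out its group rests on 1 library, assumed to vary like the others.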
